A study of Homo sapiens with 2 samples.

Results

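The mRNA of cyclin-dependent kinase (CDK) inhibitor genes was compared between control and FZR1 ko cells, both under cisplatin. The group has 8 genes, taken by their Entrez gene IDs and current NCBI symbols, among 23033 genes with a value in the deposited table. They are the CIP/KIP genes CDKN1A, CDKN1B and CDKN1C, the INK4 genes CDKN2A, CDKN2B, CDKN2C and CDKN2D, and CDKN3. Both libraries came from breast cancer cells labelled T-47D and treated with cisplatin at 2 µg/ml, a platinum drug that crosslinks DNA. The series text speaks of 2 cell lines, and whether this means the control and FZR1 ko lines is not stated. The control library carries the WT genotype label. The other carries the FZR1 ko label, from a line made with CRISPR/Cas9 and screened from single cells, so it stands for 1 clone. There was 1 library per group, so the differences below have no replicate check and none was tested. Untreated cells were not analysed here, so the values do not show what cisplatin itself changed.

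CDK inhibitors set how long a cell waits before it replicates its DNA or divides. CIP/KIP proteins (p21, p27 and p57) bind complexes of cyclins with CDKs, above all those that drive S phase. INK4 proteins (p16, p15, p18 and p19) bind CDK4 and CDK6 alone and keep them from cyclin D. CDKN3 is a different kind of protein, a phosphatase that removes the activating phosphate of CDKs. FZR1 activates the ubiquitin ligase APC/C in late mitosis and G1. One of the proteins it marks for degradation is SKP2, which in turn marks p27. CDKN1A is the best-known transcriptional target of p53. The protein level of several of these inhibitors is also set by degradation, which mRNA does not show.

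Values are FPKM (mapped fragments scaled to library size and transcript length), so levels can be compared between genes within a library. The control library summed to 502589 FPKM and the FZR1 ko library to 500488 FPKM. FPKM holds no read numbers, so the depth behind a value is unknown, but the most frequent FPKM ratio of short RNA genes, shared within 0.5% by 46 of 244, put the depth of FZR1 ko at about 1.02 times that of control. FZR1 itself was at 12.3 FPKM in control and at 10.1 FPKM in FZR1 ko, and since small Cas9 edits need not remove the transcript, that level checks no label. Of 15 luminal breast markers 7 were under 1 FPKM in both libraries, among them ESR1 (0.04 and 0.13 FPKM), PGR, GATA3 and CDH1 (E-cadherin), while KRT8 (829 and 998 FPKM) and KRT18 (552 and 740.0 FPKM) were high. Vimentin, a mesenchymal marker, had 315 and 295 FPKM. The line is therefore called only by its label here. Of the 8 luminal markers kept, 1 was at least 2-fold lower in FZR1 ko, MUC1 (99.4 and 37.5 FPKM), and 1 was at least 2-fold higher, EPCAM (3.90 and 11.5 FPKM), with a median log2 ratio of 0.08 and summed levels over all 15 of 1602 and 1882 FPKM. Of the 8 mesenchymal and basal markers kept, 2 were at least 2-fold higher, CDH2 (2.97 and 15.3 FPKM) and AXL (16.0 and 37.8 FPKM), and 0 were at least 2-fold lower, with a median of 0.48 and summed levels over all 10 of 418 and 462 FPKM, while SNAI2 had 7.05 and 3.86 FPKM. The part of these differences in the results below was not tested. In bulk RNA fewer cells expressing a gene and less RNA per cell cannot be told apart.

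All 8 genes were expressed in both libraries and passed the filter of at least 1 FPKM in at least 1 library. CDKN1A, CDKN2B and CDKN2D were each about 4-fold lower in FZR1 ko, CDKN1B and CDKN1C were lower by less, CDKN2A and CDKN2C were nearly equal, and CDKN3 was higher. Each difference is a log2 ratio of FPKM + 1, FZR1 ko over control, a scale that understates the change of low genes. On that scale 3 of 8 genes (37.5%) were at least 2-fold lower and 0 of 8 were at least 2-fold higher. Over the 13554 genes kept, 6.72% were at least 2-fold lower and 6.78% at least 2-fold higher. The median log2 ratio was -0.49 over the 8 genes and -0.0048 over all genes kept. Taken on FPKM without a pseudocount, CDKN1A, CDKN2B and CDKN2D were more than 4-fold lower, a size reached by 0.72% of the 12081 genes that had 1 FPKM or more in each library.

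**Figure D1:**
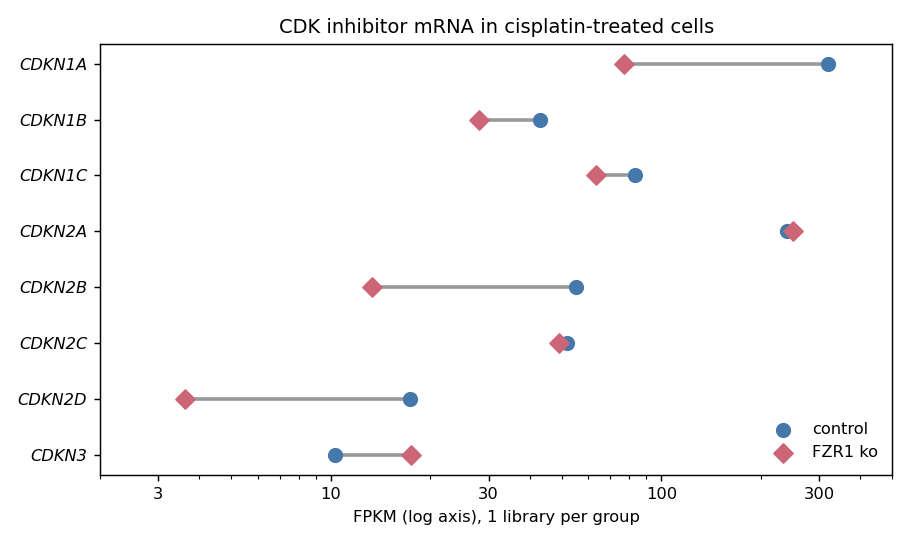
FPKM of each CDK inhibitor gene (log axis) in control (circles) and FZR1 ko (diamonds), 1 library per group, with a line joining both values of a gene. CDKN1A, CDKN2B and CDKN2D have the longest lines, all towards lower values in FZR1 ko, the values of CDKN2A and CDKN2C nearly coincide, and CDKN3 alone runs clearly the other way.

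The DNA just before an annotated transcript start of 5 of these genes is shown, since 3 of them were lower together, CDKN2A is the neighbour of CDKN2B that did not follow it, and CDKN3 was the higher one. RefSeq windows (GRCh38.p14, the hg38 build) were found for 7 of the 8 genes, with none for CDKN1C. Sequences read 5′ to 3′ on the strand of the gene from 250 bases before that start. Each ends at that start or, where an exon of a protein-coding transcript in GENCODE 44 reaches into the window, just before that exon. Capitals mark matches on either strand to the GC box GGGCGG, to CCAAT, to TATAAA, to the E-box CACGTG or to the cell cycle element CHR (TTTGAA or TTCGAA). Those of CDKN1A lie at chr6:36678464-36678709 (plus strand, before an internal start, since longer transcripts begin upstream), of CDKN2B at chr9:22009306-22009555 (minus), of CDKN2D at chr19:10569060-10569229 (minus), of CDKN2A, at the start nearest to the p16 transcript, at chr9:21974867-21975107 (minus), and of CDKN3 at chr14:54396757-54396978 (plus).
CDKN1A: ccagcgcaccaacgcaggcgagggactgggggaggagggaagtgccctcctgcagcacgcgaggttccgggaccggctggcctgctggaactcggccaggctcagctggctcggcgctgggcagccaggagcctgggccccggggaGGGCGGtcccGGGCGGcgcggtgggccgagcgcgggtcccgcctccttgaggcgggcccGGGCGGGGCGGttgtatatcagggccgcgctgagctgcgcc
CDKN2B: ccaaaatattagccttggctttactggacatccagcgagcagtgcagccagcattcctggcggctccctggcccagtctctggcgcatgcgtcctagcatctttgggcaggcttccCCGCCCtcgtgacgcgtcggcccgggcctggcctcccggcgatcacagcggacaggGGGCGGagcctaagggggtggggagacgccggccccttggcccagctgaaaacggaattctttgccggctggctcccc
CDKN2D: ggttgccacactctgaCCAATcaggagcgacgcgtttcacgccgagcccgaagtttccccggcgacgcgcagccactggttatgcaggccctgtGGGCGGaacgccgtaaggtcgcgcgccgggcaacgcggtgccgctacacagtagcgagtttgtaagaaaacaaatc
CDKN2A: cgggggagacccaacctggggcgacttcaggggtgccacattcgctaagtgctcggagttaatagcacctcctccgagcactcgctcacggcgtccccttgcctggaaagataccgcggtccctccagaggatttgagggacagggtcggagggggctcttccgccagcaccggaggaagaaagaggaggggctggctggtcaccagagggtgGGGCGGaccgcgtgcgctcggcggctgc
CDKN3: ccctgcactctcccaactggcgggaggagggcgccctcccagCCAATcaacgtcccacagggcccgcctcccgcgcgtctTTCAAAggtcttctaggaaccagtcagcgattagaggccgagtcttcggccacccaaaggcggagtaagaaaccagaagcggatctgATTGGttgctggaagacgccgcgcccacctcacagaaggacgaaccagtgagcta

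Over the full 250 bases, the CDKN1A window held 4 GC boxes, of which 2 overlap, and had a GC content of 76.4%, higher than 91.9% of all 35116 windows. CDKN2B and CDKN2D each held 2 GC boxes. The CDKN2A window shown held 1, and CDKN3 held none, while CDKN1B held 1 and 2 of the 3 windows of CDKN2C held at least 1. A GC box is found in 42.6% of all windows, so it is a common element. CDKN3 held the 1 CHR match among the 10 windows of the group, starting 170 bases before the gene start, and 14.3% of all windows hold one. CCAAT (in 32.0% of all windows) was found in CDKN2D once and in CDKN3 at 2 places, and also in CDKN1B at 2 places and in 1 window of CDKN2C. TATAAA (10.7%) was in none of the 10 windows. The E-box (6.34%) was in 2 windows of CDKN2C. These are matches of letters, and binding was not measured.

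Among the CIP/KIP genes, CDKN1A (Entrez gene 1026, chr6:36676463-36687332), which encodes p21, was at 319 FPKM in control and at 77.2 FPKM in FZR1 ko. In control it was the highest of the 8 genes and higher than 98.4% of all genes kept. In FZR1 ko it was the second highest of the 8. Its log2 ratio was -2.03, the 79th lowest of 13554. CDKN1B (gene 1027, chr12:12717368-12722369), which encodes p27, was at 43.0 FPKM in control and at 28.1 FPKM in FZR1 ko (log2 ratio -0.60). CDKN1C (gene 1028, chr11:2883218-2885775), an imprinted gene that encodes p57, had 83.2 and 63.3 FPKM (-0.39). Both stayed within 2-fold. All 3 CIP/KIP genes were lower in FZR1 ko, and CDKN1A differed far more than its relatives, from 7.41 times the level of CDKN1B in control to 2.75 times in FZR1 ko.

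The INK4 genes divided into a pair that was nearly equal and a pair that was lower. CDKN2A (gene 1029, chr9:21967752-21995324) was at 240.3 FPKM in control and at 249 FPKM in FZR1 ko (log2 ratio 0.05). It encodes p16 and, in another reading frame, ARF, which stabilises p53, and a value per gene does not separate these transcripts. CDKN2B (gene 1030, chr9:22002903-22009313), which encodes p15 and is known to respond to TGF-beta, was at 55.2 FPKM in control and at 13.3 FPKM in FZR1 ko (-1.97, the 97th lowest of 13554). CDKN2A was thus 4.35 times the level of CDKN2B in control and 18.7 times in FZR1 ko. Both genes are near-relatives in sequence, so reads split between them are uncertain.

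CDKN2C (gene 1031, chr1:50960745-50974634), which encodes p18, had 51.85 and 48.9 FPKM (log2 ratio -0.08). CDKN2D (gene 1032, chr19:10566460-10568979), which encodes p19, was at 17.3 FPKM in control and at 3.61 FPKM in FZR1 ko (-1.99, the 92nd lowest). In FZR1 ko it was the lowest of the 8 genes. The level of CDKN2C was 2.99 times that of CDKN2D in control and 13.5 times in FZR1 ko. Without the pseudocount CDKN2D showed the largest ratio of the 8 genes, at 4.80-fold, against 4.14-fold for CDKN2B and 4.12-fold for CDKN1A.

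CDKN3 (gene 1033, chr14:54397007-54420218) was the lowest of the 8 genes in control, at 10.3 FPKM, and had 17.5 FPKM in FZR1 ko. Its log2 ratio of 0.71 stayed within 2-fold, and 86.2% of the genes kept had a lower ratio. It usually moves with genes of G2 and mitosis. None of 20 G2/M genes was 2-fold apart, 13 were lower and 7 higher in FZR1 ko, and their median log2 ratio was -0.17. In that list BUB1B (9.12 and 15.5 FPKM, 0.71) was nearly equal to CDKN3, just below it on the FPKM + 1 scale and just above it without a pseudocount, and UBE2C (286 and 155 FPKM, -0.88) and NEK2 (58.3 and 32.5 FPKM, -0.82) were lowest.

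**Figure D2:**
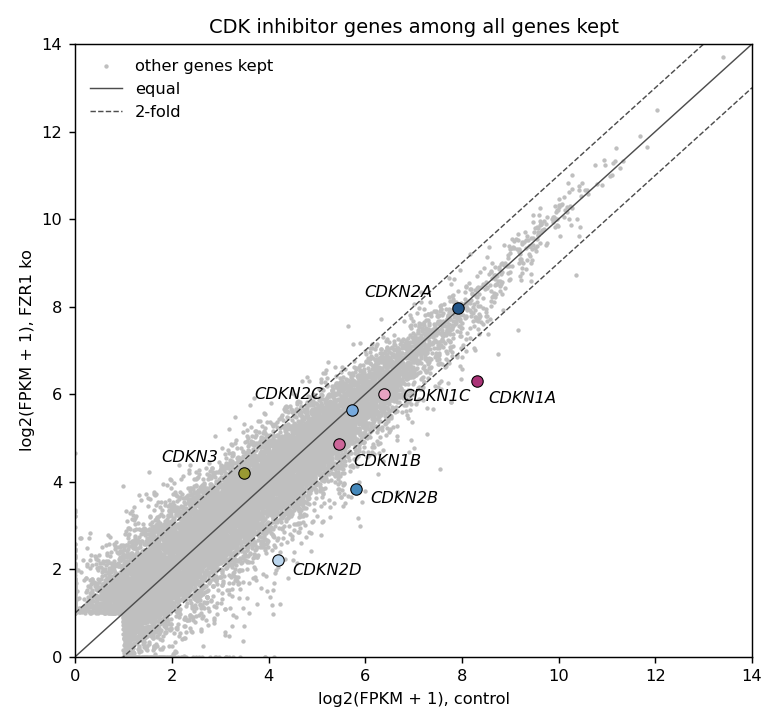
log2(FPKM + 1) in FZR1 ko against control for all 13554 genes kept (grey) and the 8 CDK inhibitor genes (coloured), with lines at equal values and at 2-fold. CDKN1A, CDKN2B and CDKN2D, in falling order of expression, lie below the lower 2-fold line, and the other 5 lie between the lines.

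Summed over the genes, the inhibitor mRNA stood at 820 FPKM in control and at 501 FPKM in FZR1 ko. The CIP/KIP sum stood at 445 FPKM in control and at 169 FPKM in FZR1 ko, 2.64-fold lower. The INK4 sum was 365 and 315 FPKM, 1.16-fold lower. CDKN1A made up 38.9% of all inhibitor mRNA in control and 15.4% in FZR1 ko. CDKN2A made up 29.3% and 49.7%. The leading gene was therefore CDKN1A in control and CDKN2A in FZR1 ko, with 0.75 CDKN2A per CDKN1A in the first and 3.23 in the second. CDKN1C held place 3 in both libraries. CDKN2B went from place 4 to place 7.

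**Figure D3:**
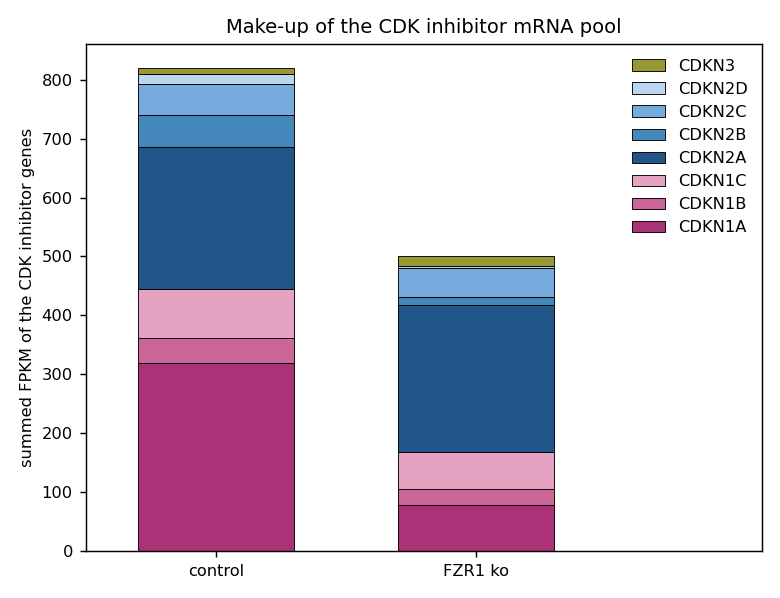
Stacked bars of the FPKM of the 8 CDK inhibitor genes in control and FZR1 ko, 1 library each (CIP/KIP genes in purple and pink, INK4 genes in blue, CDKN3 in olive). The CDKN1A segment shrinks from 319 to 77.2 FPKM while the CDKN2A segment keeps nearly the same height.

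The kinases and cyclins that these proteins bind were also counted. Of 13 such genes 11 were kept, 2 were at least 2-fold lower, 1 was at least 2-fold higher, and their median log2 ratio was -0.29. The shares over all genes kept, to set beside this and the other list counts, were 6.72% lower and 6.78% higher, with a median of -0.0048. CCNE2 (77.3 and 24.3 FPKM, log2 ratio -1.63) and CCNE1 (56.7 and 22.9 FPKM, -1.27), the E cyclins that p21 and p27 restrain, were lower in FZR1 ko. CDK2, their partner, had 182 and 103 FPKM (-0.82). CDK6, a target of the INK4 proteins, was higher (4.02 and 11.9 FPKM, 1.36), while CDK4 had 152 and 135 FPKM (-0.16). Per unit of CDK2 mRNA, CDKN1A mRNA was 1.75 in control and 0.75 in FZR1 ko. INK4 mRNA per unit of CDK4 and CDK6 mRNA was 2.34 and 2.14.

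Downstream of CDK4 and CDK6 stand the retinoblastoma proteins and E2F factors. Of these 10 genes 1 was 2-fold lower, E2F1 (83.4 and 38.8 FPKM, log2 ratio -1.09). RB1 was higher (5.81 and 11.6 FPKM, 0.88), as was its relative RBL1 (2.92 and 6.64 FPKM, 0.96), both within 2-fold on the FPKM + 1 scale. The median of the list was 0.26.

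Of 16 genes listed for the degradation of p21, p27 or p57, 0 were 2-fold apart in either direction, and the median log2 ratio was 0.12. Most of them are ubiquitin ligase parts, but the list also holds PSME3 and FZR1 itself. SKP2, which recognises p27, had 86.6 and 103 FPKM (0.24). CKS1B, the cofactor it needs for p27, had 386 and 257 FPKM (-0.59), and CUL1, its scaffold, had 11.6 and 21.1 FPKM (0.81). Of the listed transcription factors of CIP/KIP genes and CDKN2B, 13 of 15 were kept, 5 lower and 8 higher in FZR1 ko, with a median log2 ratio of 0.16. Past 2-fold was 1, KLF6, which was lower (9.02 and 3.55 FPKM, -1.14). KLF4, an activator of CDKN1A, had 16.6 and 8.94 FPKM (-0.82), and MYC, a repressor of CDKN1A and CDKN2B, had 54.8 and 93.8 FPKM (0.76). ZBTB17, the partner through which MYC acts on both genes, had 26.6 and 16.2 FPKM (-0.68). SMAD2, which carries TGF-beta signals to CDKN2B, had 6.83 and 11.2 FPKM (0.63), and FOXO1, an activator of CDKN1B, had 3.02 and 4.99 FPKM (0.58).

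Regulators of the CDKN2A and CDKN2B locus included Polycomb proteins, which silence it. Of these 13 genes 1 was 2-fold lower and 1 was 2-fold higher, 4 were lower and 9 higher by any amount, and the median was 0.32. Of the 8 Polycomb genes among them 7 had a higher value in FZR1 ko, all within 2-fold, with log2 ratios over the 8 from -0.10 to 0.72. Over all 13554 genes kept, 6726 were higher by any amount. Whether these small differences matter for the locus was not tested. RNF2 (4.48 and 8.01 FPKM, 0.72) and RING1 (31.4 and 45.3 FPKM, 0.52), the ubiquitin ligases of the complex, were at the top of that range, and the methyltransferase EZH2 had 32.2 and 40.6 FPKM (0.32). TBX3, a repressor of the locus, was lower (27.4 and 12.5 FPKM, -1.07), and TBX2, its relative, was higher (0.26 and 2.15 FPKM, 1.32). TBX2 passed the filter only through its FZR1 ko value, so its place in the count depends on the filter. ID1, which opposes activation of CDKN2A by ETS factors, had 74.1 and 137 FPKM (0.88). ETS2, such a factor, had 27.6 and 15.8 FPKM (-0.77).

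CDKN1A was set beside 24 other p53 target genes, a list written with earlier results of these data known. Of the 23 kept, 8 were past 2-fold in the lower direction and 0 in the higher, with a median log2 ratio of -0.72. Over all genes kept, 6.72% were at least 2-fold lower and 6.78% higher, with a median of -0.0048. On the FPKM + 1 scale the ratio of CDKN1A was lower than that of all but 2 of them, PMAIP1 (128 and 26.4 FPKM, -2.23) and BTG2 (75.7 and 17.2 FPKM, -2.08), an apoptosis initiator and a growth-arrest gene. PLK3 (-1.84), GDF15 (-1.63) and FAS (-1.59) followed. Without a pseudocount 3 of them were lower by more than CDKN1A, since FAS (5.04-fold lower) then joined the other two. PHLDA3 (101 and 99.6 FPKM, -0.02), TP53I3 (0.03) and SESN1 (0.16) lay near 0.

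The genes within 200 kb of each inhibitor gene were compared to see whether a difference was shared along the chromosome. Of the 36 distinct neighbours kept, 2 (5.56%) were 2-fold lower and 2 were 2-fold higher, near the shares over all genes, and their median log2 ratio was 0.0039. This pool mixes the loci of members that were lower with those of members that were not, so it cannot answer the question for a single locus. CDKN2B had 2 kept neighbours, CDKN2A and CDKN2B-AS1. CDKN2A and CDKN2B, whose gene bodies lie 7.58 kb apart, differed from each other, while CDKN2B-AS1, the antisense RNA that runs through CDKN2B, had 2.71 and 2.64 FPKM (-0.03) and MTAP had 7.85 and 8.89 FPKM (0.16). In the GENCODE annotation the exons of CDKN2B and CDKN2B-AS1 share 0 bases.

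Next to CDKN1A, the noncoding RNA DINOL was lower (2.39 and 0.13 FPKM, log2 ratio -1.58). DINOL passed the filter only through its control value. It lies within the CDKN1A gene on the other strand. The strand setting of the counting is not stated, and 146 of its 951 exon bases in GENCODE are also CDKN1A exon, so its reads are in part uncertain. Its exon also covers 96 bases of the CDKN1A window printed above. PANDAR, another noncoding neighbour, had 0.25 and 0.20 FPKM, below the filter. The coding neighbour SRSF3, a splicing factor, had 68.0 and 111 FPKM (0.69). Next to CDKN1C, PHLDA2, which belongs to the same imprinted cluster, was lower (569 and 176 FPKM, -1.69), more than CDKN1C itself (-0.39), and KCNQ1OT1, the noncoding RNA that silences the cluster on the paternal chromosome, had 1.19 and 0.87 FPKM (-0.23). FAF1, which starts beside CDKN2C on the other strand, was higher (2.27 and 7.56 FPKM, 1.39), while CDKN2C was not. Of the 12 neighbours of CDKN2D kept, 0 were 2-fold lower, with ratios from -0.62 to 1.16.

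The protein-coding genes closest to each member in both libraries were found by straight distance in log2(FPKM + 1), over 2 libraries. For CDKN1A they were GDF15, at a distance of 0.35, MARCKSL1 (0.44) and JUNB (0.51), farther from it than the nearest gene was from any other member. For CDKN2B they were MAFF (0.17), LYPD3 (0.23) and RBM15 (0.25), and for CDKN2D they were NR4A2 (0.055), DNAJB9 (0.15) and SOCS1 (0.15). CDKN2A lay closest to GADD45GIP1, SUMO2 and HSPA9, CDKN2C to CLPP, UQCR10 and DNAJC2, and CDKN3 to PRCP, TMEM63A and SEMA3F. For CDKN1B they were PVR, MIS18A and MKI67, and for CDKN1C WBP11, SLC35A4 and POLE3, all within 0.05.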

How the data were processed

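RNAseq of 1 control and 1 FZR1 ko library was analysed. The authors sequenced total RNA on the BGISEQ-500 platform, and their methods name Bowtie2 and RSEM on hg38. The processing notes of the submitters name Trimmomatic 0.36, HISAT2 2.1.0, Bowtie2 2.2.5 and RSEM, with no roles. The annotation, strand and fragment length are not given in the sources used here. The authors deposited FPKM per Entrez gene ID, rounded to 2 decimals. Of 24663 genes 1630 had no value, and 22925 of the other 23033 matched a RefSeq symbol. The table has 0 other columns of values.

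Log2 ratios used a pseudocount of 1 FPKM, over genes that reached 1 FPKM in either library. Genes past 2-fold were counted. With 1 library per group no test was made. Neighbours have their gene start within 200 kb, with coordinates from RefSeq and strands from GENCODE 44. Apart from FZR1, genes named from the lists are among the 6 with the largest absolute log2 ratio, or were named after their values were seen (SKP2, CDK4, EZH2, PHLDA3, TP53I3, SESN1 and the markers). The values of some listed genes are not reported here. The members and lists were chosen with earlier results of these data known. The counting code was run on simulated data with planted 4-fold changes in well expressed genes, which checks the code and not the differences reported here. Python 3.11.15, numpy 2.4.6 and pandas 2.3.3 were used.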

Additional observations from a re-analysis of the deposited data

How the results depend on the processing

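No paired analysis was possible because there is a single library in each group and nothing was tested, so no replicate could be left out. The 8 log2 ratios kept their direction and their side of 2-fold in all 48 values under 6 alternatives, which were pseudocounts of 0.1 and 5 FPKM, no pseudocount (chosen after seeing the data), centring on the median and rescaling to the same sum or upper quartile. CDKN1A ranged from -2.04 to -1.96, CDKN2B from -2.05 to -1.72 and CDKN2D, the least expressed of the 3, from -2.26 to -1.37. At a 4-fold threshold on the FPKM + 1 scale 1 gene, CDKN1A, passed in place of 3, with CDKN2D (-1.99) and CDKN2B (-1.97) just short of it. Without a pseudocount all 3 passed 4-fold. The family sums, rescaled to the same sum or upper quartile, kept their direction and side, as did the medians of 8 lists, the 7 plotted and the noncoding neighbours (5 of 7 kept, median -0.23), in all 32 values under 4 alternatives (both other pseudocounts, the same sum and centring). With 5 FPKM the median moved most in proportion for the retinoblastoma and E2F list (0.26 to 0.15) and the noncoding neighbours (-0.23 to -0.077). Over all genes, 911 were lower and 919 higher at 2-fold, against 797 and 1065 rescaled to the same upper quartile, 270 and 183 with a pseudocount of 5 FPKM, 1358 and 1460 with 0.1 FPKM, and 89 and 61 at 4-fold. The unknown read numbers limit the lowest values most, such as those of DINOL and TBX2.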
